A study of Homo sapiens with 24 samples.

Results

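Ribosome biogenesis genes encode the factors that transcribe, modify, cut and fold ribosomal RNA and assemble it with ribosomal proteins into the 40S and 60S subunits. A list of 40 such genes was described here, each taken by its gene symbol and represented by its brightest expressed probe. Of the 40, 37 were measured among the 15246 genes with an expressed probe: 9 factors of the small-subunit processome and later 40S steps, 10 factors of 60S assembly, 8 proteins of small nucleolar ribonucleoproteins (snoRNPs), 5 polymerase I genes and 5 other nucleolar genes. GNL3 and WDR43 had no probe in the annotation used, and the 1 probe of NPM1 lay above the median of fewer than 2 arrays, so these 3 members have no value here.

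The arrays came from cells labelled Huh-7, an established human hepatocellular carcinoma line, in 3 stable lines made with lentiviral short hairpin RNAs. The shHIF1A line, depleted of the subunit through which a hypoxia-inducible factor responds to oxygen, had 3 arrays after 3 h at 1% oxygen, 2 after 6 h and 2 after 12 h. The shNDRG3 line, depleted of an NDRG family protein, had 2 arrays at each of 6 h, 12 h and 24 h, and the control line with a hairpin against GFP (shGFP) had 3 at 3 h, 2 at each of 6 h, 12 h and 24 h, and 2 in normoxia. The question was how each gene's transcript level changed with time at low oxygen and how the knockdown lines differed from the control line there. All lines carried a lentiviral hairpin, each target was represented by 1 hairpin line, and no array here was titled as a knockdown line in normoxia. A difference that depends on hypoxia and one that a line carries at all times therefore cannot be told apart. The design text places the knockdown lines in normoxia, whereas each array's title and treatment give hours of hypoxia, and these were followed. Time at 1% oxygen and time in culture cannot be told apart. The labels do not say whether arrays of a group came from separate cultures, so the tests measure the spread between these arrays, which may be technical.

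Ribosomes are built mainly in the nucleolus, where RNA polymerase I transcribes the ribosomal RNA precursor. The processome, a large complex around that precursor, folds and cuts it towards the 40S subunit, while other factors mature the 60S subunit, and snoRNPs place methyl groups and pseudouridines on the RNA. The genes of these factors are commonly transcribed together, and the transcription factor MYC, which binds E-box sequences, is known for raising many of them in growing and tumour cells.

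Upstream sequences are shown for 5 members because the members moved largely together, and these 5 were picked, after their values were seen, to show different responses. NOP16, HEATR1 and POLR1C were among the lowest of their role at 24 h, FBL was a member that did not pass the test there, and NOP10 was lower in the shNDRG3 line. Each is the 250 bases before the RefSeq gene start (GRCh38.p14), 5′ to 3′ on the gene's strand, with capitals marking the E-box letters CACGTG and the ETS-type letters CCGGAAG on either strand.
NOP16, chr5:176388599-176388848, minus strand: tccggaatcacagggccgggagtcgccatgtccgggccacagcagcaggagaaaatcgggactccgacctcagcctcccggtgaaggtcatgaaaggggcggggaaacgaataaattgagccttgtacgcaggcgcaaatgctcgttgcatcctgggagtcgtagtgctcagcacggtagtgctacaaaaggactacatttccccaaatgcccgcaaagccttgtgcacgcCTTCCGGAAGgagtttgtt
HEATR1, chr1:236604517-236604766, minus strand: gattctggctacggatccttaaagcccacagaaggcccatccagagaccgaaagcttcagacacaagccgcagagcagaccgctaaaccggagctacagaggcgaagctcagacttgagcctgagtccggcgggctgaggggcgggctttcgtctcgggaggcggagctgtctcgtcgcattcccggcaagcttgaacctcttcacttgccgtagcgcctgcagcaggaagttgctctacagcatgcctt
POLR1C, chr6:43516839-43517088, plus strand: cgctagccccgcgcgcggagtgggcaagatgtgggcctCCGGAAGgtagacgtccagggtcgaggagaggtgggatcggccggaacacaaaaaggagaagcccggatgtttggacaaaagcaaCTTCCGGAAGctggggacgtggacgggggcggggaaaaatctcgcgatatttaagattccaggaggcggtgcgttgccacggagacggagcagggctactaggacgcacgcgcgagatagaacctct
FBL, chr19:39846380-39846629, minus strand: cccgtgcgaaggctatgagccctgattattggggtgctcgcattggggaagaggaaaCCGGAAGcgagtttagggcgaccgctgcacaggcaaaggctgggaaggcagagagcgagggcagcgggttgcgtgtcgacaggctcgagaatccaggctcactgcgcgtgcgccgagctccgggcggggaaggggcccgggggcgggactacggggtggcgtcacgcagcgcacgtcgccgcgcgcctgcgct
NOP10, chr15:34343137-34343386, minus strand: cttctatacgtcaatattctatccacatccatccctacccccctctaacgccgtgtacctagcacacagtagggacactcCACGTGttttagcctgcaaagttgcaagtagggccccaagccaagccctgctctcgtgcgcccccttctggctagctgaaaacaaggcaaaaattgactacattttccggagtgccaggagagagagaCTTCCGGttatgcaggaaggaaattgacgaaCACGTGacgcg
Among the 30 measured members with an upstream sequence, CACGTG stood in 2 (6.67%), NOP10 and UTP20, against 8.25% of 11849 tested genes. In NOP10 these letters began 170 and 11 bases before the gene start. CCGGAAG or its reverse stood in 9 members (30%), against 13.9% of the tested genes, and NOP16 and POLR1C held more than 1 copy, some of them overlapping. The letters ACGTG, part of every CACGTG, stood in 9 members (30%) against 22.1% of the tested genes, GCGTG in 17 (56.7%) against 41.9%, and CCAAT in 11 (36.7%) against 35.1%, all counted on both strands. HEATR1 held none of these motifs. These are counts of letters in a 250-base window and were not tested.

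Across the arrays the median deposited signal lay between 115 and 150, and arrays of a group correlated at r = 0.9798 to 0.9973 over all genes. The lowest of these was the pair of shNDRG3 arrays at 24 h, whose members also stood apart: the median member lay 1.34 below the shGFP normoxia level on the log2 scale in replicate 1 and 0.77 below it in replicate 2. Member counts or medians of the comparisons that rest on that pair are also given without each array. Counts by role, by further probe, in wider lists and above the shGFP normoxia mean that rest on it are not. HIF1A fell in the shHIF1A line by 1.48 ± 0.09 on the log2 scale (SE) and NDRG3 fell in the shNDRG3 line by 2.18 ± 0.07, each averaged over the line's times and against shGFP. Of 9 hepatocyte markers with a probe, 1 (FOXA1) lay over 2 times the array median in shGFP normoxia. ALB lay 0.92 above the median on the log2 scale and AFP 0.27 below it. None of the secreted proteins in that list passed 2 times the median there, so these markers gave the label Huh-7 little support. In such bulk RNA, fewer cells of a kind and less RNA per cell cannot be told apart.

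**Figure D1:**
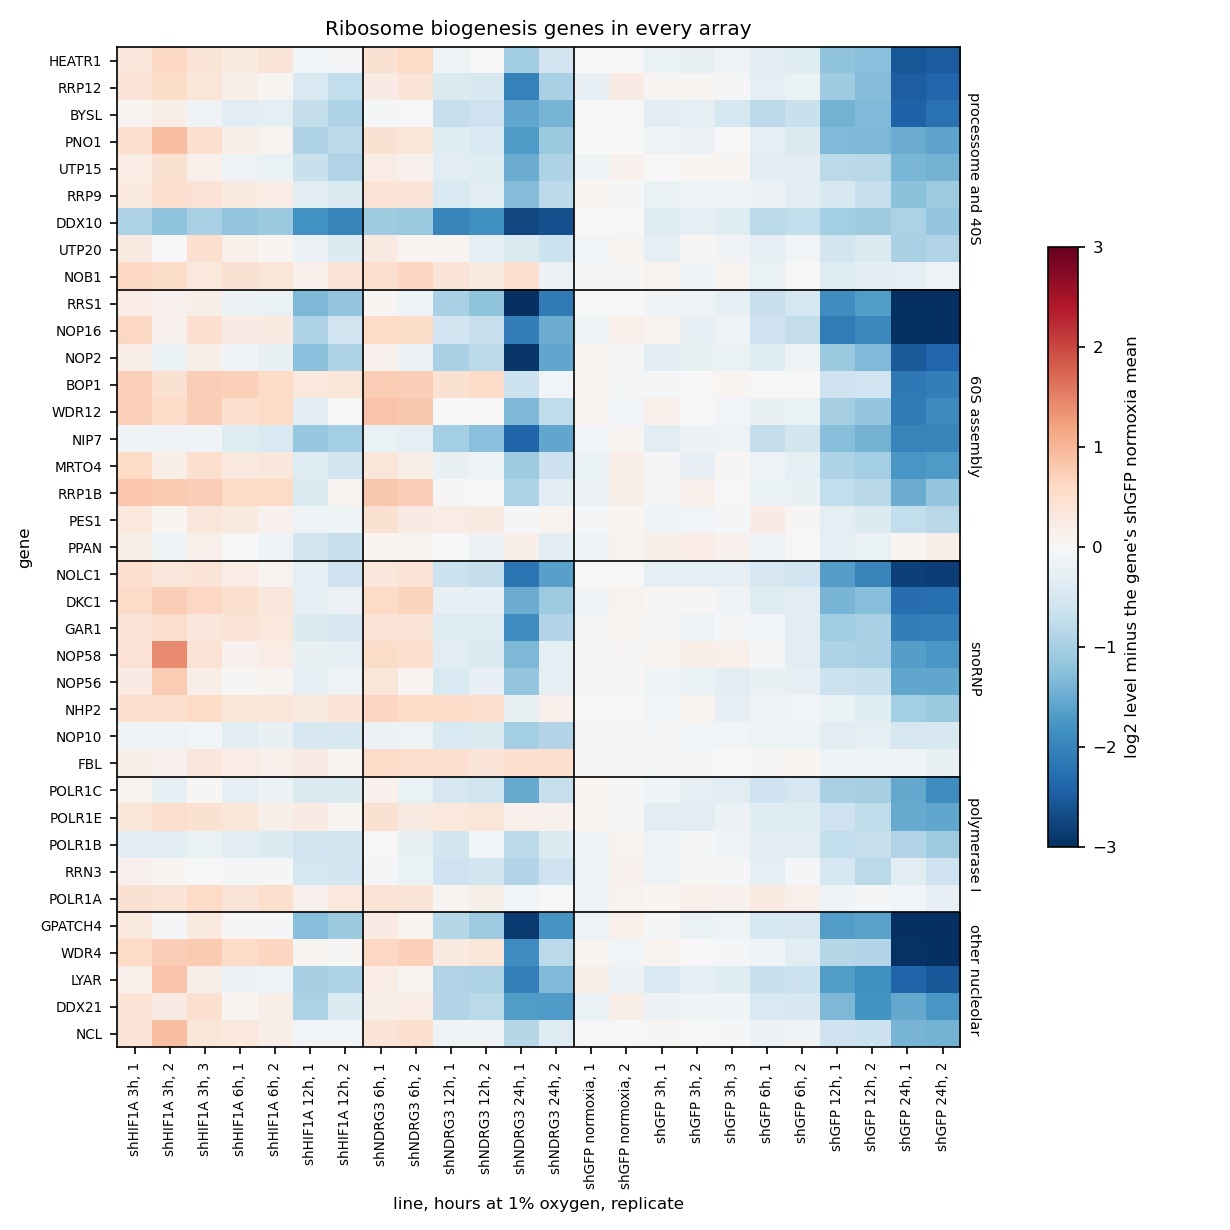
Log2 level of each of the 37 members (rows, grouped by role) in each of the 24 arrays (columns: line, hours at 1% oxygen, replicate), minus the gene's mean in the 2 shGFP normoxia arrays. Blue is lower and red higher. The shGFP arrays at 12 h and 24 h are blue in nearly every row, the knockdown lines at 3 h and 6 h are mostly red, and DDX10 is blue throughout both knockdown lines. The colour scale ends at a difference of 3 in each direction.

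Ribosome biogenesis transcripts declined with time at 1% oxygen in the control line, little at first and then strongly. Of the 37 members, 33 were lower after 24 h than in normoxia and none was higher, with a median log2 change of -1.64, beside a median of -0.003 over all genes (limma, adjusted p under the threshold of 0.05). Over all 15246 genes 24.2% were lower and 21.1% higher. At 12 h 32 members were lower and none higher (median -0.94), beside 12.2% lower and 13% higher over all genes. At 6 h 5 members, namely BYSL, DDX10, NOP16, NIP7 and NOLC1, were lower and none higher (median -0.24), beside 1.62% and 3.25% over all genes. Leaving out any 1 of the 4 arrays compared at 6 h gave a members' median of -0.31 to -0.22. Median-centred arrays gave 2 members at 6 h, beside 127 lower and 286 higher genes. Array weights gave 14, beside 453 lower and 697 higher genes (247 and 495 in the main fit). At 3 h 0 members passed in either direction by limma (median -0.09), beside 0.203% lower and 1.28% higher over all genes. At an unadjusted limma p under 0.05, 5 members were lower. The share of all genes at that unadjusted p is not given here. The same 2 normoxia arrays stand behind all these times. The 24 h decline put 15 members among the lowest 152 genes (1%) of the array.

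These counts depend on how arrays were scaled. Quantile normalization sets all arrays to the same distribution, so each change is relative to the other genes. With the signals as deposited, 37 members were lower at 24 h, beside 9035 lower and 1098 higher genes (3694 lower and 3223 higher after normalization) and a median over all genes of -0.42. At 12 h that scale gave 36 members, beside 4832 lower and 683 higher genes (1866 and 1981 after normalization), and at 6 h it gave 6 members, beside 630 lower and 193 higher genes (247 and 495 after normalization). The members' median at 24 h lay 1.84 below that of all genes as deposited and 1.64 below it after normalization.

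**Figure D2:**
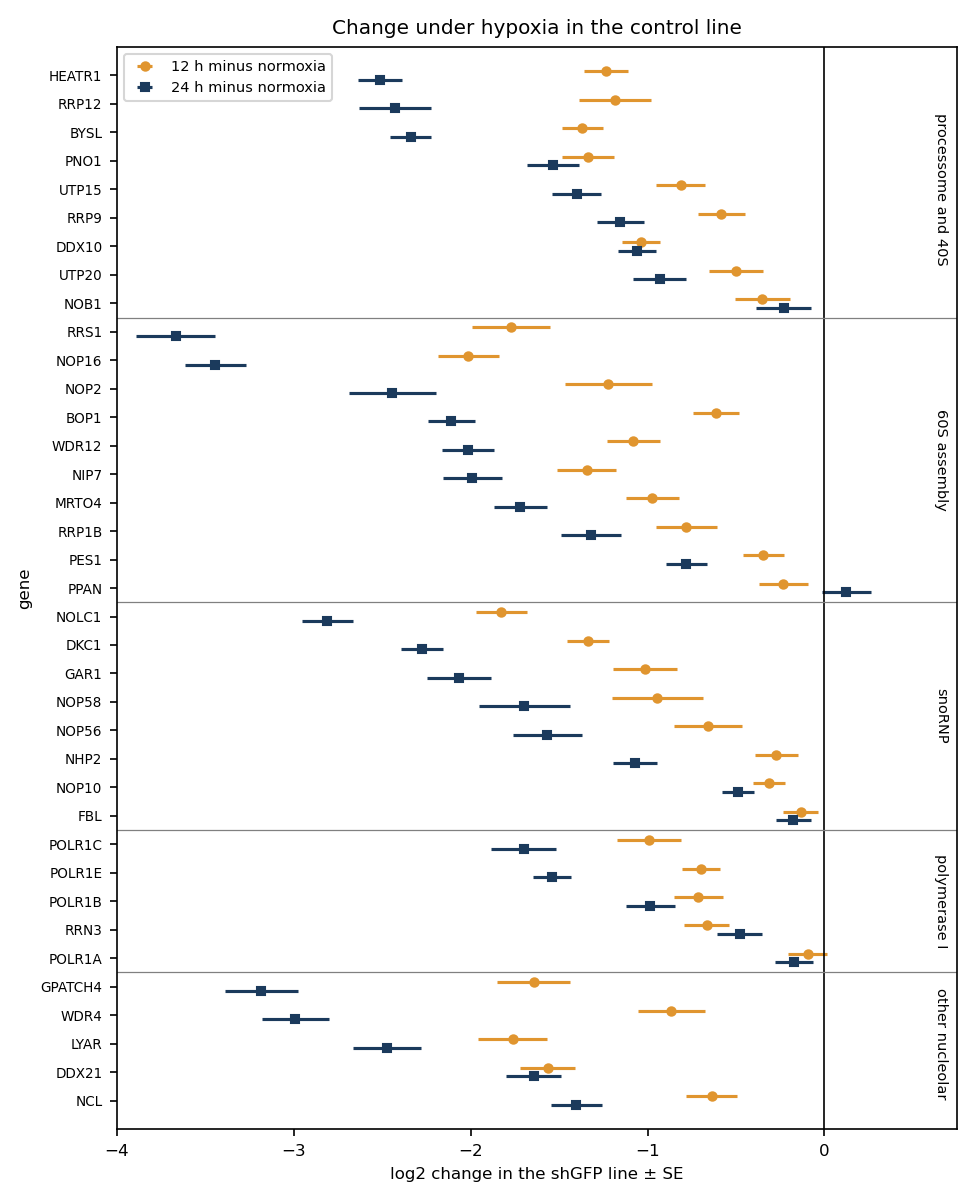
Log2 change in the shGFP line against normoxia for each member, grouped by role, at 12 h (circles) and 24 h (squares), with bars for the SE of the limma fit (n = 2 arrays per group). Most 24 h points lie well below their 12 h points, from -3.67 for RRS1 to 0.13 for PPAN, and DDX10, DDX21, FBL and NOB1 have both points close together.

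Among the processome and 40S factors, 8 of 9 fell at 24 h, with a median of -1.40. HEATR1, a processome protein that also promotes polymerase I transcription, gave signals of 527 and 545 after 24 h, against 3066 and 3057 in normoxia. Its levels in between were 2615 to 2862 at 3 h, 2371 and 2426 at 6 h, then 1275 and 1324 at 12 h. The arrays lay lower at each later time with no overlap between times, and the 24 h change was -2.51 ± 0.13 (SE, 5.71-fold lower, adjusted p = 1.13e-13). RRP12, which takes part in maturing and exporting pre-ribosomal particles, had 182 and 194 after 24 h against 857 and 1190 in normoxia. The 24 h arrays lay near the array median, so the fold was at least 5.37 (log2 change -2.43 ± 0.20, adjusted p = 7.35e-10). The factor BYSL, needed for the late 40S precursor, fell by 2.34 ± 0.12 and was already lower at 6 h (-0.73 ± 0.12, adjusted p = 0.000195). The member with no call was NOB1, the endonuclease that makes the last cut of small-subunit RNA, with 428 and 473 after 24 h against 518 and 538 in normoxia. Its arrays did not overlap between groups, yet the change of -0.23 ± 0.15 did not pass the limma test (adjusted p = 0.25). By limma it passed with the signals as deposited (-0.81, adjusted p = 0.000271) and with median-centred arrays (-0.47, adjusted p = 0.0252). PNO1, the partner of NOB1 on the 40S precursor, fell by 1.53 ± 0.15.

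The 60S assembly factors showed the widest spread, with 9 of 10 lower at 24 h and a median of -2.0. RRS1, which helps load the 5S ribonucleoprotein, had 182 and 164 after 24 h against 2192 and 2208 in normoxia, at least 12.7-fold lower (log2 change -3.67 ± 0.22, adjusted p = 3.35e-12). NOP16, a nucleolar 60S factor and a known MYC target, had 218 and 213 after 24 h against 2100 and 2618 in normoxia. Its earlier arrays gave 1989 to 2526 at 3 h, 1427 and 1536 at 6 h, then 546 and 617 at 12 h. The 3 h arrays overlapped those of normoxia and the later ones did not, with a change at 24 h of -3.44 ± 0.17 (10.9-fold lower, adjusted p = 1.11e-13). The 3 proteins of the PeBoW complex, which processes large-subunit RNA, fell unequally: BOP1 by 2.11 ± 0.13, WDR12 by 2.02 ± 0.15 and PES1 by 0.78 ± 0.12. PPAN, another 60S factor, had 645 and 700 after 24 h against 577 and 658 in normoxia, with overlapping arrays and a change of 0.13 ± 0.14 (adjusted p = 0.52). With the signals as deposited the PPAN change turned negative.

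Among the snoRNP proteins, 7 of 8 fell at 24 h, with a median of -1.63. NOLC1, a chaperone of snoRNPs that links them to the nucleolus, had 280 and 273 after 24 h against 1965 and 1907 in normoxia. In between it had 1567 to 1581 at 3 h, 1354 and 1290 at 6 h, then 613 and 487 at 12 h. No hypoxic array reached the normoxia arrays, and the 24 h change was -2.81 ± 0.14 (7.01-fold lower, adjusted p = 1.43e-13). Within the pseudouridine-forming H/ACA particle the change differed in size: the synthase DKC1 had 1887 and 1907 after 24 h against 8539 and 9871 in normoxia, a fall of 2.28 ± 0.12 on the log2 scale. Its partner GAR1 fell by 2.07 ± 0.18, NHP2 by 1.07 ± 0.12 and NOP10 by 0.49 ± 0.09. In the methylating C/D particle NOP56 fell by 1.57 ± 0.19 and NOP58 by 1.70 ± 0.26. The methyltransferase of that particle, FBL, had 7334 and 6761 after 24 h against 7797 and 8106 in normoxia. These FBL groups did not overlap, and the change of -0.18 ± 0.10 did not pass (adjusted p = 0.17). With the signals as deposited FBL changed by -0.75 (adjusted p = 8.18e-06).

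Of the polymerase I genes, 4 of 5 fell at 24 h, with a median of -0.98. POLR1C, a subunit shared with polymerase III, had 1835 and 1454 after 24 h against 5561 and 5069 in normoxia, a change of -1.70 ± 0.18 (3.25-fold lower, adjusted p = 4.54e-08). POLR1E, a subunit that takes part in initiation, had 713 and 693 after 24 h against 2144 and 1956 in normoxia, a change of -1.54 ± 0.11 (2.91-fold lower, adjusted p = 3.16e-11). Both genes had 24 h arrays far below the normoxia arrays. RRN3, the initiation factor that brings the polymerase to its promoter, changed by -0.48 ± 0.13 at 24 h and by -0.67 ± 0.13 at 12 h. Its 24 h call was lost without replicate 2 of normoxia (adjusted p = 0.0772) or of 24 h (adjusted p = 0.0845). POLR1B, the second-largest subunit, fell by at least 0.98 (fitted SE 0.14), since its 24 h mean lay below the array median. POLR1A, the largest subunit, was dim throughout, with 125 and 112 after 24 h against 124 and 143 in normoxia, and these groups overlapped (adjusted p = 0.22).

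All 5 other nucleolar genes fell at 24 h, with a median of -2.47. GPATCH4, a nucleolar protein with a G-patch domain, had 508 and 554 after 24 h against 4360 and 5332 in normoxia, a change of -3.18 ± 0.21 (9.09-fold lower, adjusted p = 1.08e-11). WDR4, the partner of a tRNA-methylating enzyme, had 320 and 311 after 24 h against 2669 and 2354 in normoxia, a change of -2.99 ± 0.19 (7.95-fold lower, adjusted p = 6.08e-12). LYAR, a nucleolar zinc-finger protein, fell by 2.47 ± 0.19, and DDX21, an RNA helicase of ribosomal RNA transcription and processing, by 1.64 ± 0.16. NCL, the abundant nucleolar protein nucleolin, had 3294 and 3250 after 24 h against 8566 and 8747 in normoxia, a change of -1.40 ± 0.14 (2.65-fold lower, adjusted p = 2.04e-08). The role groups hold 5 to 10 genes each, and their medians are a description with no test between roles.

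Members with more than 1 expressed probe gave a check on single probes. The further probes were tested in a fit over all 31100 kept probes. The share of all those probes past the threshold is not given here. The 23 further probes of 14 members were all lower at 24 h, with log2 changes of -3.24 to -0.35, and 19 of them were lower at 12 h and 3 at 6 h. For NOP16 the second probe changed by -3.24 and for LYAR by -2.59, near the values of the brightest probe. A dim NOP2 probe changed least (-0.35, beside -2.44 for its brightest probe), and those of WDR4 changed by -1.22 and -0.95, beside -2.99. Small changes were not confined to dim probes, since the bright second probe of NOP10 changed by -0.49, as did its brightest probe. On average over their times 19 of the 23 were higher in the shHIF1A line than in shGFP and none lower, and 18 were higher and 1, of NOP10, lower in the shNDRG3 line.

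The decline was still under way between 12 h and 24 h for most members. Of the 33 members lower at 24 h, 27 were also lower at 24 h than at 12 h, with a median over all 37 of -0.75, beside 15% lower and 12.2% higher over all genes. This comparison uses no normoxia array. With the signals as deposited it gave 29 members, beside 3955 lower and 624 higher genes (2289 and 1858 after normalization). The median member had reached 55.7% of its 24 h log2 change at 12 h. The late members were NHP2 (25.4%), WDR4 (28.9%) and BOP1 (29%), and WDR4 fell by a further 2.13 on the log2 scale after 12 h. The 6 members that fell by 24 h with no further decline past the threshold were NOP10, POLR1B, PNO1 (87.2% reached at 12 h), DDX21 (95.2%), DDX10 (98.1%) and RRN3 (139%). By role the median share reached at 12 h was 53.6% for 60S assembly, 55.8% for the processome, 55.7% for snoRNP, 65.3% for polymerase I and 51.6% for the other nucleolar genes. The polymerase I share is over 4 genes, among them POLR1B with its 24 h level below the array median. UTP20 and RRP9 of the processome also lay below that median at 24 h. UTP15 and RRP12 of the processome and RRS1 of 60S assembly lay under 1.5 times it, so other shares also rest partly on dim levels.

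**Figure D3:**
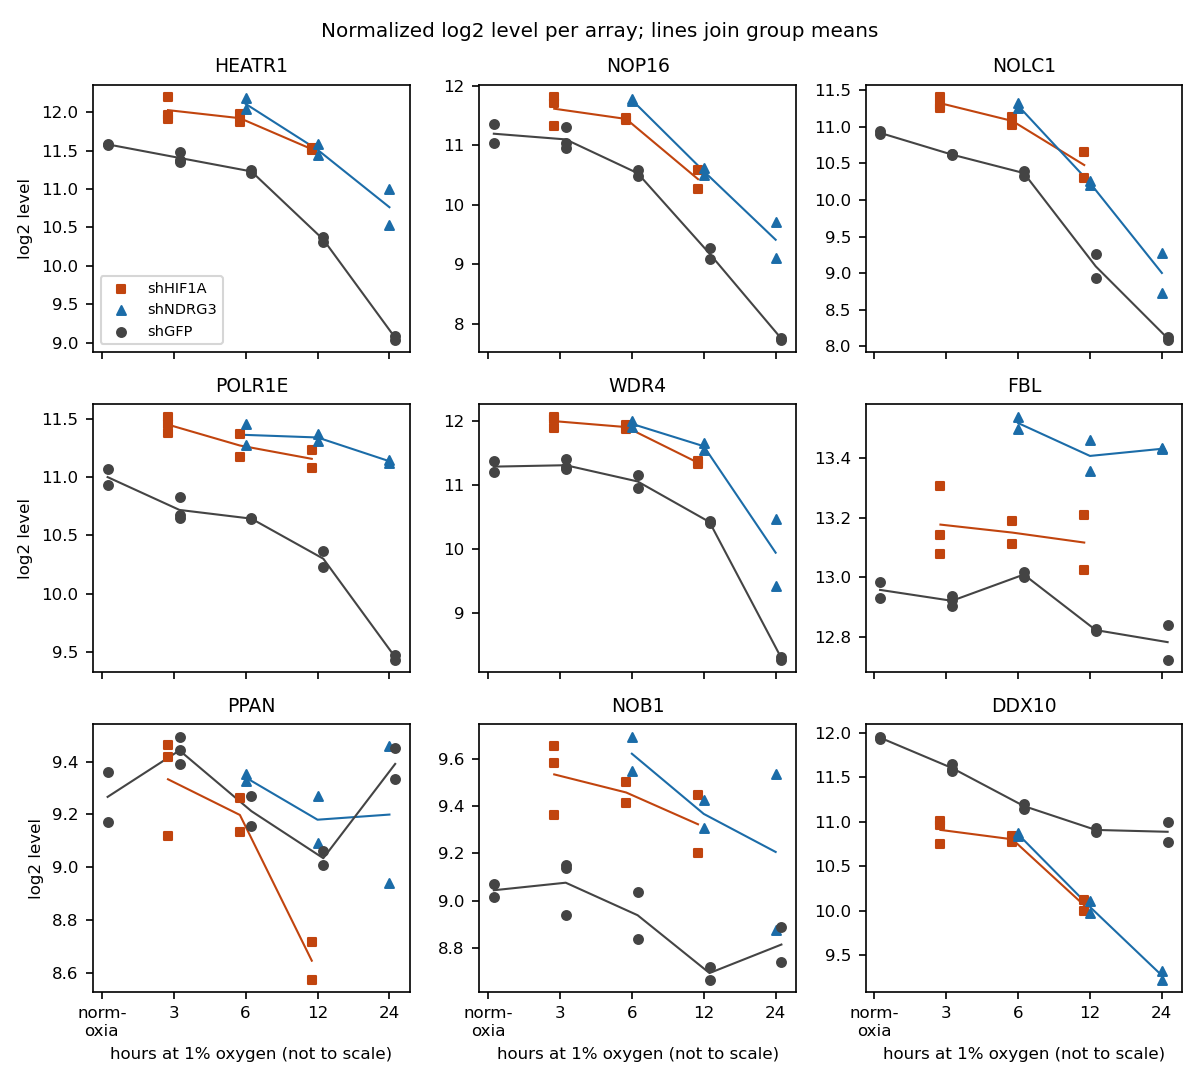
Normalized log2 level of 9 members in each array against hours at 1% oxygen (positions not to scale), with squares for shHIF1A, triangles for shNDRG3 and circles for shGFP, and lines through group means. HEATR1, NOP16, NOLC1, POLR1E and WDR4 decline in shGFP and lie higher in both knockdown lines at each shared time, PPAN and NOB1 change little in shGFP, and DDX10 lies lower in both knockdown lines. The 2 shNDRG3 points at 24 h lie far apart for several genes.

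Other genes of the pathway, from lists chosen with earlier results of these data known, showed the following at 24 h in the shGFP line, beside 24.2% lower and 21.1% higher over all genes. Among 47 further processome and 40S genes 41 fell and 1 rose (median -0.86). LTV1, a factor of 40S export, fell by 2.06, UTP14A by 2.05 and RCL1 by 2.0, and IMP3, a U3 snoRNP protein, rose by 0.90 ± 0.10. Among 47 further 60S genes 39 fell and 1 rose (median -0.91). MAK16 fell by 2.84, RRP15 by 2.52 and NIFK by 2.06, and EFL1, a GTPase of the last 60S step, rose by 0.87 ± 0.15. Of 10 snoRNP assembly genes 6 fell and 1 rose (median -0.45), led by the ATPase RUVBL1 (-2.15) and by ZNHIT6 (-2.12), with PIH1D1 higher (0.70). Of 12 RNA exosome genes, whose products trim ribosomal RNA precursors, 10 fell and 1 rose (median -0.92), with EXOSC4 lowest (-1.74) and DIS3, the catalytic subunit, higher (0.68).

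The further transcription machinery and the ribosomal proteins moved less uniformly. Of 10 further polymerase I genes 4 fell and 3 rose (median -0.17), with POLR1G lowest (-1.23) and UBTF, which binds and activates ribosomal DNA, highest (0.96 ± 0.14). Of 13 polymerase III genes 7 fell and 2 rose (median -0.60), with POLR3K lowest (-1.96). Of 68 ribosomal protein genes 16 fell and 2 rose, 23.5% and 2.94% beside 24.2% and 21.1% over all genes, and their median change was -0.09. RPL36A fell by 1.57 and RPL29 by 1.48, and RPL37 rose by 1.30. Many ribosomal protein genes have near-identical pseudogene copies whose transcripts a probe may share, so single values in that list are uncertain.

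**Figure D4:**
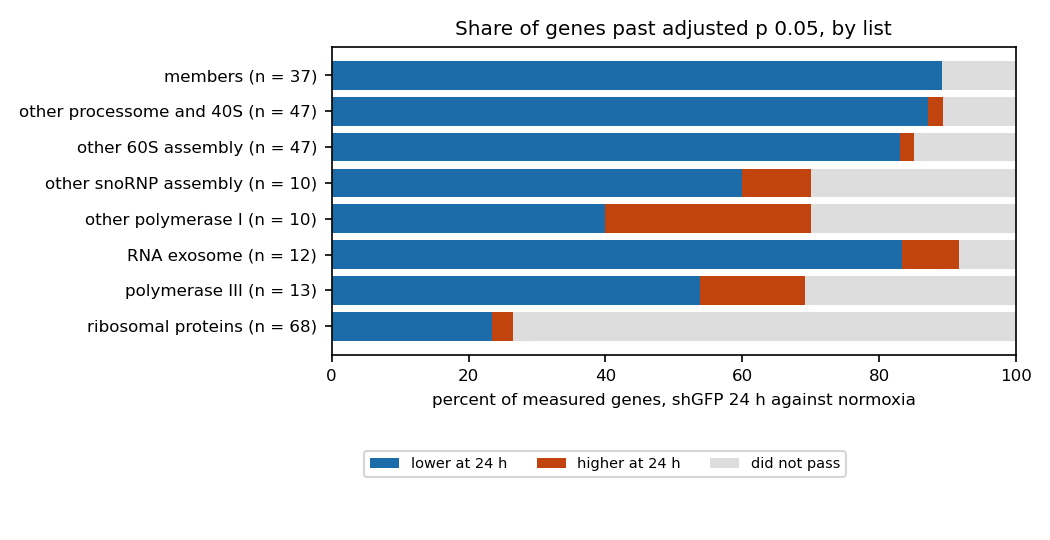
Percent of measured genes that were lower (blue), higher (red) or past neither threshold (grey) in the shGFP line after 24 h at 1% oxygen against normoxia, for the 37 members and 7 further lists, with the number measured in brackets. The lower share is 89.2% for the members, 87.2% for the other processome genes and 23.5% for the ribosomal proteins.

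In the shHIF1A line the members were mostly higher than in shGFP at the same hours of hypoxia. Averaged over 3 h, 6 h and 12 h, 29 of 37 were higher and 1 lower, with a median log2 difference of 0.47, beside 18.8% lower and 19.2% higher over all genes and a median of 0.004. At 3 h 25 were higher and 1 lower (median 0.50), beside 13.3% lower and 11.8% higher over all genes. At 6 h 17 were higher and 1 lower (median 0.43), beside 9.75% and 8.39%. At 12 h 22 were higher and 2 lower (median 0.55), beside 12.4% and 10.9%. The 6 h total of 18 became 10 without either shHIF1A array of that hour, the 12 h total of 24 became 14 without shGFP replicate 2, and the signals as deposited gave 10 and 15. As deposited, 1172 genes were lower and 597 higher at 6 h (1486 and 1279 after normalization). At 12 h that scale gave 1295 lower and 1235 higher genes (1890 and 1666 after normalization). For the change of the shHIF1A difference between 3 h and 12 h, 0 members passed by limma (median 0.06), beside 0.676% lower and 0.551% higher over all genes. At an unadjusted limma p under 0.05, 1 member was lower and 4 were higher. The share of all genes at that unadjusted p is not given here. By role 7 of 9 processome, 7 of 10 60S, 7 of 8 snoRNP, 3 of 5 polymerase I and 5 of 5 other nucleolar members were higher on average. The lower member was DDX10 in each of these comparisons, joined by PPAN at 12 h (-0.39 ± 0.14, adjusted p = 0.0461).

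In the shNDRG3 line the members were likewise mostly higher than in shGFP. Averaged over 6 h, 12 h and 24 h, 31 of 37 were higher and 2 lower, with a median of 0.62, beside 20.9% lower and 22.7% higher over all genes and a median of 0.015. At 6 h 25 were higher and 1 lower (median 0.62), beside 13.2% lower and 12.1% higher over all genes. At 12 h 25 were higher and 1 lower (median 0.67), beside 14% and 13.4%. At 24 h 24 were higher and 2 lower (median 0.78), beside 16.1% and 17.2%. Without shNDRG3 replicate 1 the 24 h count was 29 higher and 3 lower (median 1.01), and without replicate 2 it was 17 higher and 5 lower (median 0.41). Fitting the compared groups alone gave 11 higher and 1 lower at 24 h, beside 1034 lower and 761 higher genes (2449 and 2618 in the main fit). The average over the times held 33 higher members without replicate 1, with NOP2 and NIP7 added, and 30 without replicate 2, with POLR1A lost (adjusted p = 0.0517). By role 8 of 9 processome, 7 of 10 60S, 7 of 8 snoRNP, 4 of 5 polymerase I and 5 of 5 other nucleolar members were higher on average. Both knockdown effects are differences from the same shGFP arrays at 6 h and 12 h, so their likeness is not independent evidence.

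**Figure D5:**
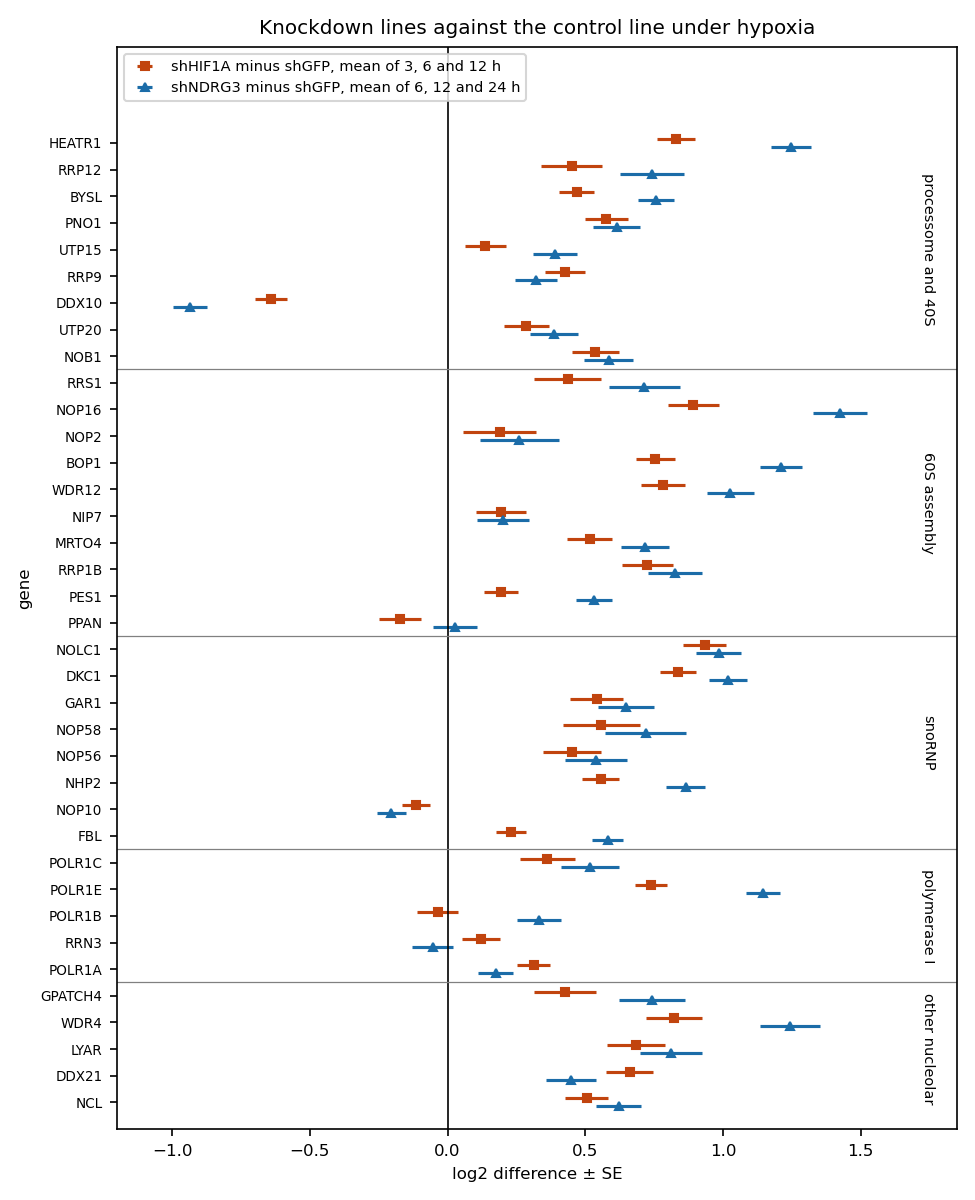
Average log2 difference of each member from shGFP in hypoxia, in the shHIF1A line (squares, 3 h, 6 h and 12 h) and in the shNDRG3 line (triangles, 6 h, 12 h and 24 h), with bars for the SE. Most points lie right of 0, up to 0.93 (NOLC1) and 1.43 (NOP16). DDX10 and, by less, NOP10 lie left of 0 in both lines. The lines were averaged over different hours.

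The members with the largest average differences were NOLC1 and NOP16 in the shHIF1A line and NOP16 and HEATR1 in the shNDRG3 line. NOP16 had 3612, 2560 and 3341 at 3 h, 2761 and 2807 at 6 h, then 1238 and 1541 at 12 h in the shHIF1A line, against 2526, 1989 and 2101, 1536 and 1427, and 546 and 617 in shGFP at those hours. In the shNDRG3 line it had 3520 and 3433 at 6 h, 1579 and 1453 at 12 h, then 553 and 840 at 24 h, against 1536 and 1427, 546 and 617, and 218 and 213 in shGFP. Every knockdown array lay above every shGFP array of its hour. The average difference was 0.89 ± 0.09 in shHIF1A (1.86-fold higher, adjusted p = 4.37e-08) and 1.43 ± 0.10 in shNDRG3 (2.69-fold higher, adjusted p = 2.24e-11).

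HEATR1 had 3853, 4704 and 3989 at 3 h, 3736 and 4020 at 6 h, then 2906 and 2956 at 12 h in the shHIF1A line, against 2656, 2615 and 2862, 2426 and 2371, and 1324 and 1275 in shGFP. In the shNDRG3 line it had 4193 and 4633 at 6 h, 2772 and 3068 at 12 h, then 1476 and 2046 at 24 h, against 2426 and 2371, 1324 and 1275, and 527 and 545 in shGFP. The groups did not overlap at any hour, and the average difference was 0.83 ± 0.07 in shHIF1A (adjusted p = 7.55e-10) and 1.25 ± 0.07 in shNDRG3 (adjusted p = 7.84e-13). NOLC1 at 12 h had 1617 and 1259 in shHIF1A and 1231 and 1177 in shNDRG3, against 613 and 487 in shGFP. Its average difference was 0.93 ± 0.08 in shHIF1A (1.91-fold higher, adjusted p = 8.46e-10) and 0.98 ± 0.08 in shNDRG3 (1.98-fold higher, adjusted p = 5.91e-10).

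The polymerase I subunit POLR1E was the clearest of its role. It had 2270 and 2233 in shNDRG3 at 24 h against 713 and 693 in shGFP, and 2535 and 2649 against 1321 and 1204 at 12 h. These groups were far apart, with an average difference of 1.15 ± 0.06 in shNDRG3 (2.21-fold higher, adjusted p = 1.68e-13) and of 0.74 ± 0.06 in shHIF1A (1.67-fold higher, adjusted p = 3.16e-10). In the shNDRG3 line its level at 24 h was not lower than at 6 h past the threshold (-0.23, adjusted p = 0.101). FBL, which did not pass in hypoxic shGFP, had 11060 and 11030 in shNDRG3 at 24 h against 7334 and 6761 in shGFP, and its average difference was 0.58 ± 0.06 in shNDRG3 (adjusted p = 1.02e-08) and 0.23 ± 0.05 in shHIF1A (adjusted p = 0.00137). NOB1 also passed in both lines, by 0.54 ± 0.08 in shHIF1A and 0.59 ± 0.09 in shNDRG3. Its 24 h change in shGFP had not passed after quantile normalization. Members that passed on average in neither knockdown line were PPAN, NOP2, NIP7 and RRN3. Without shNDRG3 replicate 1 at 24 h the shNDRG3 averages of NOP2 (0.49, adjusted p = 1.66e-05) and NIP7 (0.35, adjusted p = 5.7e-05) passed. The mean of the NOP2 probes also passed, with an adjusted p of 0.0277 in shHIF1A and 0.0218 in shNDRG3. Of the 3 further NOP2 probes, 2 passed in shHIF1A (adjusted p = 0.0227 and 0.0184) and 1 in shNDRG3 (adjusted p = 0.00157). Array weights and a fit of the compared groups alone also gave calls in shHIF1A, higher for NOP2 and NIP7 and lower for PPAN.

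At 24 h the remaining members with values given per array for shGFP had the following levels in the shNDRG3 line. GPATCH4 had 656 and 1418 in shNDRG3 against 508 and 554 in shGFP, and WDR4 had 685 and 1424 against 320 and 311. RRS1 had 204 and 502 in shNDRG3 against 182 and 164 in shGFP, and RRP12 had 249 and 516 against 182 and 194. In each of these genes replicate 2 was the higher shNDRG3 array, and both of its arrays lay above those of shGFP. DKC1 had 3281 and 4324 in shNDRG3 against 1887 and 1907 in shGFP, and NCL had 4769 and 6604 against 3294 and 3250. POLR1C had 1852 and 3295 in shNDRG3 against 1835 and 1454 in shGFP, so its lower knockdown array nearly met the higher control array. PPAN had 704 and 491 in shNDRG3 against 645 and 700 in shGFP, NOB1 had 743 and 470 against 428 and 473, and POLR1A had 125 and 133 against 125 and 112. The groups of PPAN, NOB1 and POLR1A overlapped, POLR1A by a margin lost in rounding.

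DDX10, an RNA helicase that works with the processome, went the other way in both knockdown lines and was singled out after its values were seen. It had 2066, 1717 and 2004 at 3 h, 1745 and 1829 at 6 h, then 1115 and 1021 at 12 h in shHIF1A, against 3084, 3223 and 3046, 2270 and 2362, and 1949 and 1895 in shGFP. In shNDRG3 it had 1884 and 1834 at 6 h, 1006 and 1105 at 12 h, then 598 and 637 at 24 h, against 2270 and 2362, 1949 and 1895, and 2047 and 1754 in shGFP. No knockdown array reached a shGFP array of its hour. The average difference was -0.64 ± 0.06 in shHIF1A (1.56-fold lower, adjusted p = 3.85e-09) and -0.93 ± 0.06 in shNDRG3 (1.91-fold lower, adjusted p = 8.02e-12), and the 24 h difference in shNDRG3 was -1.62 ± 0.11 (3.07-fold lower), with -1.57 without replicate 1 and -1.66 without replicate 2. In shGFP, where DDX10 was among the 5 members lower at 6 h, it had 3918 and 3981 in normoxia. NOP10, the small protein of the H/ACA particle, was the other member lower in shNDRG3 on average (-0.20 ± 0.05, adjusted p = 0.00255), and its call was lost with the signals as deposited (adjusted p = 0.336).

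The knockdown lines also declined with time. In shHIF1A 30 of 37 members were lower at 12 h than at 3 h and none higher (median -0.83), beside 10.7% lower and 11.1% higher over all genes. In shNDRG3 34 were lower at 24 h than at 6 h and none higher (median -1.39), beside 20.8% and 19.3%, with 33 lower when either 24 h array was left out. With all arrays the members with no call there were PPAN, FBL and POLR1E. Without replicate 1 PPAN was called (adjusted p = 0.025) and PES1 (adjusted p = 0.151) and POLR1B (adjusted p = 0.12) were not, and without replicate 2 NOB1 was not (adjusted p = 0.692). With the signals as deposited both counts were 37, beside 4179 lower and 489 higher genes in shHIF1A (1626 and 1685 after normalization) and 5532 lower and 1271 higher in shNDRG3 (3175 and 2944 after normalization).

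Set against shGFP normoxia, most members began higher and ended lower in the knockdown lines. The mean of 32 of 37 members lay above the shGFP normoxia mean in shHIF1A at 3 h, of 25 at 6 h and of 7 at 12 h. For shNDRG3 28 members lay above it at 6 h, 10 at 12 h and 4 at 24 h. For shGFP 11 members lay above it at 3 h, 3 at 6 h, none at 12 h and 1 at 24 h. These counts are a description, since line and oxygen differ together. The share of all genes above that mean is not given here.

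Compared directly over 6 h and 12 h, with no shGFP array involved, 5 members were lower in shHIF1A than in shNDRG3 and none higher (median -0.13), beside 7.25% lower and 8.52% higher over all genes. They were UTP15 (-0.41 ± 0.10), PNO1 (-0.37 ± 0.10), PPAN (-0.34 ± 0.10), FBL (-0.33 ± 0.07) and PES1 (-0.26 ± 0.08). UTP15 is a processome subunit. FBL had 9338 and 8842 at 6 h, then 9472 and 8324 at 12 h in shHIF1A, against 11900 and 11550, and 11260 and 10480 in shNDRG3, with no overlap at either hour. The number of such members ranged from 1 to 10 over the processing alternatives. With depletion of different genes by 1 hairpin line each, a difference between lines and one between targets cannot be told apart.

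The shNDRG3 difference from shGFP changed between 6 h and 24 h for 8 members, with 4 lower and 4 higher (median 0.07), beside 4.64% lower and 6.03% higher over all genes. It grew for BOP1 (0.97 ± 0.19), POLR1E (0.96 ± 0.15), HEATR1 (0.82 ± 0.18) and PES1 (0.59 ± 0.16). It moved down for DDX10 (-1.30 ± 0.15), DDX21 (-0.72 ± 0.22), PNO1 (-0.66 ± 0.21) and NOP10 (-0.46 ± 0.13). This count rests on the divergent 24 h pair: the members' median change was 0.34 without replicate 1 and -0.18 without replicate 2. Over all alternatives the total ranged from 3 to 18. BOP1, HEATR1, PES1, POLR1E, DDX10 and DDX21 passed in the same direction in both of those cases, whereas PNO1 (adjusted p = 0.165) and NOP10 (adjusted p = 0.0575) did not pass without replicate 1.

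MYC moved in the same directions as most members at 24 h in shGFP and in both knockdown averages. It had 3503 and 3555 after 24 h against 9338 and 8753 in normoxia in shGFP, a change of -1.36 ± 0.10 (2.56-fold lower, adjusted p = 1.9e-10), and its average difference from shGFP was 0.80 ± 0.06 in shHIF1A and 0.92 ± 0.06 in shNDRG3. Within the knockdown lines its change over time did not pass by limma, whereas most members fell. In shHIF1A MYC changed by -0.19 from 3 h to 12 h (adjusted p = 0.164), beside 30 members lower. In shNDRG3 it changed by -0.22 from 6 h to 24 h (adjusted p = 0.1), beside 34 members lower. Whether the MYC level has a part in the members' values was not tested.

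The wider lists in the knockdown lines ran as follows, beside 19.2% higher and 18.8% lower over all genes in shHIF1A and 22.7% higher and 20.9% lower in shNDRG3. On average 28 of 47 further processome genes were higher and none lower in shHIF1A, and 33 were higher and none lower in shNDRG3. Of 47 further 60S genes 30 were higher and 3 lower in shHIF1A, and 35 were higher and 3 lower in shNDRG3, with MAK16 highest in both (0.86 and 0.99) and EFL1 lowest in both (-0.37 and -0.52). Of the 68 ribosomal proteins 22 were higher and none lower in shHIF1A, and 26 were higher and 1 lower in shNDRG3, with medians of 0.05 and 0.08. RNA exosome genes were higher for 7 of 12 in shHIF1A and 9 of 12 in shNDRG3, with none lower.

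Markers of other cell types were measured beside these differences. The summed signal of 5 blood markers was 2006 to 6704 in the knockdown arrays and 7180 to 12460 in the shGFP arrays. Only 1 of the 5, CD68, lay over 2 times the array median in shGFP normoxia, 5.75 above it on the log2 scale. The sum there is therefore mostly CD68 signal and does not describe the set. Of the other blood markers, CSF1R reached 1.62 above the array median on the log2 scale in its highest group mean and HBB 0.21, and PTPRC and CD3E lay below the median in every group mean. The 5 endothelial markers summed to 583 to 854 in the knockdown arrays and 804 to 1013 in shGFP, and the 6 fibroblast markers summed to 967 to 1194 in the knockdown arrays and 973 to 1111 in shGFP. The 9 hepatocyte markers summed to 1292 to 1625 in the knockdown arrays and 1517 to 1928 in shGFP. Their part in the members' differences was not tested.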

How the data were processed

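Total RNA of 24 Huh-7 samples was amplified, biotin-labelled and hybridised to Illumina bead arrays, per the labels' protocols. The deposited table holds linear probe intensity values for 47231 probes. How the authors scanned and normalized the arrays is not stated in the labels or headers. The deposited intensities differed in array median and reached down to 52.6, so they were treated as neither normalized nor background-subtracted, which understates folds of dim genes. Log2 intensities were quantile normalized between arrays in limma 3.58.1 (R 4.3.3). Probes above their array's median in at least 2 arrays were kept (31100), and each gene was represented by its brightest kept probe, named through the platform annotation. Printed signals are normalized intensities. Folds are given as "at least" where a group's mean lay under 1.5 times the array median, a bound chosen after the data were seen.

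Group means of all 24 arrays were fitted with limma (lmFit, eBayes, 13 residual degrees of freedom) in 18 two-sided contrasts. P-values were adjusted by Benjamini-Hochberg over all 15246 genes within each contrast, with a threshold of 0.05. Members and lists were chosen with earlier results of these data known. Per-array values are given for the 2 lowest and the 1 highest member per role at 24 h and the 2 largest differences per knockdown average. Alternatives changed the scaling, background correction, probe filter, probe choice, array weights, replicate block and fitted groups, or left out an array. The fit was tested on simulated data. Upstream sequences are from RefSeq (GRCh38.p14), with an entry for 30 of the 37 measured members.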

Additional observations from a re-analysis of the deposited data

Results flagged for a closer look

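The effects of the knockdown lines differed from each other for 5 members by the limma test of the direct comparison over 6 h and 12 h (shHIF1A minus shNDRG3, log2). Over all genes 7.25% were lower and 8.52% higher in that comparison, and the member count ranged from 1 to 10 over the processing alternatives. The differences were -0.405 for UTP15, -0.365 for PNO1, -0.338 for PPAN, -0.329 for FBL and -0.264 for PES1, with adjusted p-values of 0.00466, 0.016, 0.0192, 0.00163 and 0.0269 in that order.

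The shNDRG3 effect differed between 24 h and 6 h for 8 members by the limma test of that change, beside 4.64% lower and 6.03% higher over all genes. The change was 0.974 for BOP1, 0.961 for POLR1E, 0.819 for HEATR1 and 0.59 for PES1, and -1.301 for DDX10, -0.716 for DDX21, -0.662 for PNO1 and -0.455 for NOP10. The shNDRG3 arrays at 24 h, which had the lowest correlation of all pairs, enter each of these 8 values.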

How the results depend on the processing

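The counts of members at 12 h and 24 h in shGFP and in both knockdown averages stayed within 1.5 times their value under every alternative run. Leaving out single arrays gave 27 to 32 members at 12 h, 32 to 33 at 24 h, 29 to 30 for the shHIF1A average and 32 to 35 for the shNDRG3 average. With the signals as deposited, the shHIF1A comparison gave 10 members at 6 h and 15 at 12 h, the direct comparison of the knockdown lines 2, and the change of the shNDRG3 effect 3. Median-centred arrays gave 2 members at 6 h in shGFP, 1 in the direct comparison and 3 for the shNDRG3 change. Array weights gave 14, 10 and 5 for these, and 4 for the shHIF1A change. Fitting the compared groups alone gave 9, 9 and 3 for these, and 12 for shNDRG3 at 24 h. Leaving out single arrays gave 2 to 3 members at 6 h in shGFP, 10 to 13 and 14 to 18 for shHIF1A at 6 h and 12 h, 2 to 5 in the direct comparison, 0 to 1 for the shHIF1A change, 4 to 18 for the shNDRG3 change and 22 to 32 for shNDRG3 at 24 h. In such fits a lone array was assumed to vary like the other groups. The cause of these moves was not tested, beyond the fewer arrays in the last 2 kinds of fit. Counts over all genes moved with them in several cases. Array weights gave 453 lower and 697 higher genes at 6 h in shGFP (247 and 495 in the main fit).

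With a replicate block, 33 members passed at 24 h in shGFP and 6 in the direct comparison, and no count moved by over 1.5 times. Deviations of same-numbered arrays correlated at r -0.095 to 0.278 (median -0.002), over 0.1 in 8 and under -0.1 in 0 of 111 pairs, so the numbers were not taken as pairs.

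At 24 h in shGFP, PPAN reversed to -0.491 and NDRG3 to -0.305 with the signals as deposited. The cause was not tested. Over the members with HIF1A, NDRG3 and MYC, 500 of the 24 h values under an alternative kept direction and call, and 902 and 812 did so in the shHIF1A and shNDRG3 averages. Dim members such as POLR1A and RRS1 have understated folds, and the 2 or 3 arrays per group limit the precision.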
